A study of Sus scrofa with 18 samples.

Results

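The genes described here mark blood and lymphatic vessels in pig myometrium, the smooth muscle wall of the uterus. A list of 38 symbols was taken, namely 21 genes of blood vessel endothelium, 8 genes of lymphatic endothelium and 9 angiogenic factors and co-receptors. The members are the rows of the table whose pig Ensembl identifier carries one of these symbols. A total of 30 of the 38 had a row among the 24358 genes of the table, that is 16 blood, 7 lymphatic and 7 factor genes. VWF, EGFL7, CLDN5, SOX17, APLNR, STAB2, VEGFB and PGF were not analysed here.

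The samples were the circular muscle (CM, the inner layer) and the longitudinal muscle (LM, the outer layer) of 9 Yorkshire gilts (young female pigs), taken on the side of the uterus where the mesometrium attaches. GD12M_CM and GD12M_LM came from 3 gilts on day 12 of pregnancy, GD15M_CM and GD15M_LM from 3 gilts on day 15 of pregnancy, and CD15M_CM and CD15M_LM from 3 gilts that were not mated, on cycle day 15. Pregnant gilts were mated naturally, and the ages of the gilts are not given in the sources used here. Each gilt gave 1 CM and 1 LM sample. RNA was sequenced from these 18 samples, and the deposited values are TPM, a relative abundance that takes gene length into account.

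Blood and lymphatic endothelium are related cell types with different jobs. Blood endothelium lines arteries, capillaries and veins, and it responds to VEGFA through the receptor KDR and to angiopoietins through the receptor TEK. Lymphatic endothelium drains fluid and immune cells from the tissue, takes its identity from the transcription factor PROX1, and grows in response to VEGFC and VEGFD through the receptor FLT4 and its co-receptor NRP2. In the uterus the vessel bed is remodelled through the cycle and around implantation, and the wall holds large vessels between the CM and the LM.

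All 30 members passed the filter on low values (at least 1 TPM in at least 3 libraries). Differences are given on the log2(TPM + 1) scale as CM minus LM, or as the first state minus the second, with a standard error. A gene passed where its Benjamini-Hochberg adjusted p, over all genes tested in limma, was below 0.05 and its absolute log2 difference was above 1. In bulk tissue, fewer cells of a type and less RNA per cell cannot be told apart.

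Some libraries stood apart from their group. CD15M_LM of gilt 3 held MYH11, the smooth muscle myosin heavy chain, at 193.0 TPM against 2459 to 4849 TPM in the other LM libraries. The share of ribosomal protein genes was 13.4% there and 2.82% to 5.02% in the other 17 libraries. The summed TPM of 4 red cell genes was 1486.3 there, against 7.03 to 143.8 in the other LM libraries. In CD15M_CM of the same gilt this sum was 1211.0, against 58.9 to 374.3 in the other CM libraries. Most blood vessel genes were also low in CD15M_LM of gilt 3. The layer differences over the 3 states and on CD15 are therefore followed by their values without gilt 3 of CD15. GD15M_LM of gilt 2 held 25.4 TPM of the epithelial gene EPCAM, where GD15M_LM of gilts 1 and 3 held 0.409 and 0.884 TPM. The summed TPM of 10 epithelial genes ranged from 994.6 to 2450.1 in CM and from 9.24 to 704.0 in LM, and that of 9 smooth muscle genes from 12022 to 31669 in CM and from 13050 to 43912 in LM. None of these genes was at 0 in every library. The part of the red cell, epithelial and smooth muscle levels in the results below was not tested.

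The first question was whether vessel genes differ between the layers. Over the 3 states together, 3 of the 30 members passed, against 14.5% of all genes tested. FLT4 and MMRN1, both of lymphatic endothelium, were higher in CM, and NRP2 was lower in CM. On day 12 of pregnancy 4 members passed (15.9% of all genes), namely FLT4, LYVE1 and MMRN1 with higher levels in CM and NRP2 with a lower level. On day 15 of pregnancy 2 members passed (14.4% of all genes), MMRN1 higher and NRP2 lower. On day 15 of the cycle 0 of 30 passed (12.7% of all genes), while NRP2 passed without gilt 3, and with all gilts 7 members (33.2% of all genes) had an unadjusted p below 0.05. The members' share was near or below that of all genes in each case. With all libraries on the log2(TPM + 1) scale, none of the 16 blood genes passed in any of the 4 layer comparisons. MMRN2 passed on CD15 without gilt 1 at 1.48 ± 0.37, adjusted p = 0.038, a fit that keeps gilt 3. Its CD15 value without gilt 3 was 0.37 ± 0.19, adjusted p = 0.22. TEK passed on GD12 without gilt 2 at 1.12 ± 0.33, adjusted p = 0.044. With all libraries it passed on GD12 where 0.1 rather than 1 was added to TPM, at 1.07 ± 0.28, adjusted p = 0.025. With no minimum fold, 15 members were past the adjusted p over the 3 states (42.1% of all genes), 6 on GD12 (21.6%), 6 on GD15 (18.9%) and 0 on CD15 (16.7%).

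**Figure D1:**
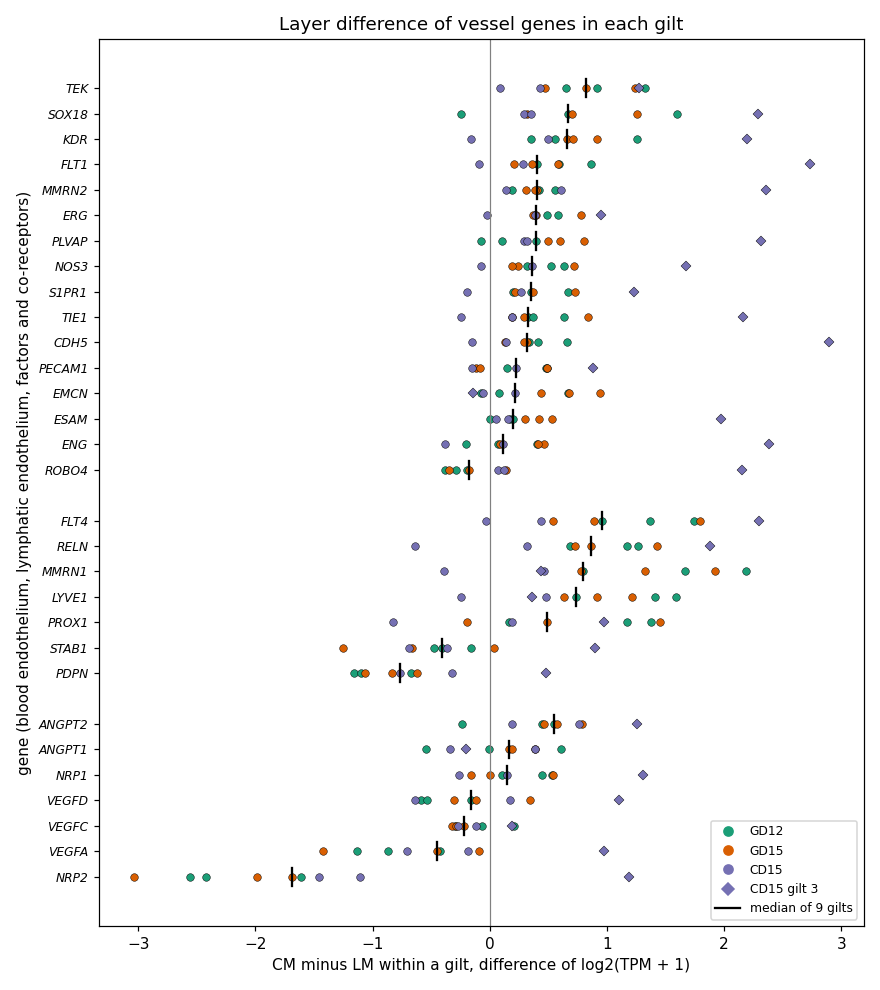
Layer difference of each member in each of 9 gilts. The x axis gives CM minus LM as a difference of log2(TPM + 1), each point is 1 gilt, colors give the state, the diamond is CD15 gilt 3 and the black tick is the median of the 9 gilts. NRP2 lies below 0 in 8 of 9 gilts with a median of -1.69, FLT4, LYVE1, MMRN1 and RELN lie above 0 in 8 of 9, and the diamond lies farthest to the right for 14 of 16 blood genes.

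The median TPM of a blood gene over the 18 libraries ran from 5.53 for NOS3 to 51.2 for CDH5. The junction proteins PECAM1 and CDH5 hold endothelial cells together. In CM, PECAM1 was at 38.8, 50.0 and 35.0 TPM on GD12, at 34.6, 56.2 and 41.8 TPM on GD15 and at 42.8, 51.5 and 52.6 TPM on CD15. In LM, PECAM1 was at 34.9, 35.5 and 24.6 TPM on GD12, at 37.7, 39.7 and 44.4 TPM on GD15 and at 47.6, 44.0 and 28.1 TPM on CD15. The ranges of the layers overlapped in GD15 and CD15, and on GD12 the lowest PECAM1 value of CM lay within the LM range. The layer difference of PECAM1 over the 3 states was 0.26 ± 0.13, adjusted p = 0.13, and 0.17 ± 0.09, adjusted p = 0.16 without gilt 3 of CD15.

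CDH5 is VE-cadherin. In CM, CDH5 was at 42.4, 51.4 and 40.2 TPM on GD12, at 48.5, 73.3 and 62.6 TPM on GD15 and at 54.0, 71.4 and 59.4 TPM on CD15. In LM, CDH5 was at 33.4, 38.4 and 25.2 TPM on GD12, at 44.2, 58.6 and 51.1 TPM on GD15 and at 60.1, 64.7 and 7.14 TPM on CD15. The lowest CDH5 value of all 18 libraries was that of CD15M_LM of gilt 3, and on GD12 every CM library was above every LM library. CDH5 differed between the layers by 0.56 ± 0.27, adjusted p = 0.12. Without gilt 3 of CD15 the difference was 0.24 ± 0.07, adjusted p = 0.017, which is past the adjusted p but below the minimum fold.

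KDR is the main signaling receptor for VEGFA. In CM, KDR was at 22.9, 23.9 and 21.0 TPM on GD12, at 28.5, 52.0 and 31.3 TPM on GD15 and at 24.4, 36.5 and 22.5 TPM on CD15. In LM, KDR was at 15.2, 18.5 and 8.25 TPM on GD12, at 17.7, 27.2 and 18.7 TPM on GD15 and at 27.4, 25.6 and 4.15 TPM on CD15. CM lay above LM without overlap in both pregnant states, and the cyclic values of the layers overlapped. The layer difference of KDR was 0.77 ± 0.22, adjusted p = 0.017 over the 3 states, positive in 8 of 9 gilts, and 0.55 ± 0.12, adjusted p = 0.0045 without gilt 3 of CD15. It did not reach the minimum fold.

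The remaining blood genes also had positive layer differences in the deposited TPM over the 3 states, of which that of ROBO4 turned negative without gilt 3 of CD15 and those of ROBO4 and EMCN under a scaling given below. Among the receptors, TEK, which binds angiopoietins, ranged from 4.03 to 32.3 TPM and had the largest difference relative to its error (0.80 ± 0.15, adjusted p = 0.002). It was higher in CM in 9 of 9 gilts, and without gilt 3 of CD15 it was 0.69 ± 0.12, adjusted p = 0.0013. TIE1, its partner, FLT1, a VEGFA receptor that acts largely as a trap, ENG, a TGF-beta co-receptor, and S1PR1, a receptor for sphingosine-1-phosphate that seals vessels, differed by 0.53, 0.66, 0.37 and 0.43. The difference of S1PR1 passed the adjusted p alone, and those of TIE1, FLT1 and ENG did not. With gilt 3 of CD15 left out, TIE1 was at 0.28 ± 0.10, adjusted p = 0.033, FLT1 at 0.37 ± 0.09, adjusted p = 0.01 and S1PR1 at 0.29 ± 0.09, adjusted p = 0.026, each past the adjusted p alone, while ENG was at 0.09 ± 0.09, adjusted p = 0.43.

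ROBO4, an endothelial receptor that steadies vessels, had the smallest difference of the blood genes (0.12 ± 0.20, adjusted p = 0.65). Its direction turned without gilt 3 of CD15, to -0.11 ± 0.08, adjusted p = 0.28. It was lower in CM in 3 of 3 gilts on GD12 and higher in CM in 3 of 3 cyclic gilts. The transcription factors ERG and SOX18 were higher in CM by 0.48 ± 0.12 and 0.80 ± 0.25 at adjusted p of 0.011 and 0.027, without reaching the minimum fold. PLVAP, the diaphragm protein of fenestrated capillaries, NOS3, the endothelial nitric oxide synthase, and MMRN2, a matrix protein that binds VEGFA, also passed the adjusted p alone, at 0.58, 0.51 and 0.60. EMCN, a sialomucin of capillaries and veins, and ESAM, an adhesion molecule, differed by 0.31 and 0.42 and did not pass. Leaving out gilt 3 of CD15 gave 0.39 for ERG, 0.59 for SOX18, 0.36 for PLVAP, 0.34 for NOS3 and 0.38 for MMRN2, and all 5 remained past the adjusted p alone. EMCN and ESAM were then past it too, at 0.33 ± 0.11, adjusted p = 0.029 and 0.21 ± 0.06, adjusted p = 0.016.

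In all, 16 of 16 blood genes had a positive layer difference, beside 11101 of the 15343 genes tested. The blood median was 0.52, beside a median of 0.24 over all genes. Of the blood genes, 8 of 16 were past an adjusted p of 0.05 with no minimum fold, where 34.4% of all genes were higher in CM. Without gilt 3 of CD15 this count was 13 of 16, where 40.1% of all genes were higher, while 15 of 16 were positive and the blood median was 0.33. Of all genes, 10286 of 15243 were then positive, with a median of 0.18. Of the 8 genes, TEK and ERG were past the adjusted p whichever gilt was left out, and the other 6 were not, with highest values from 0.055 for KDR to 0.11 for S1PR1. Scaling moved these values. After median-ratio scaling, which set the median of all genes near 0, 14 of 16 blood genes were positive, beside 7571 of 15283 genes. The blood median was 0.26 and 2 of 16 were higher past the adjusted p (22.5% of all genes). After quantile normalization 13 of 16 were positive, beside 6457 of 15343 genes. The blood median was then 0.14, beside -0.09 over all genes, and 2 of 16 were higher past the adjusted p (19.4% of all genes). The genes past it under both scalings were TEK and KDR. PECAM1 and ROBO4 were negative under both scalings and EMCN under quantile normalization.

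**Figure D2:**
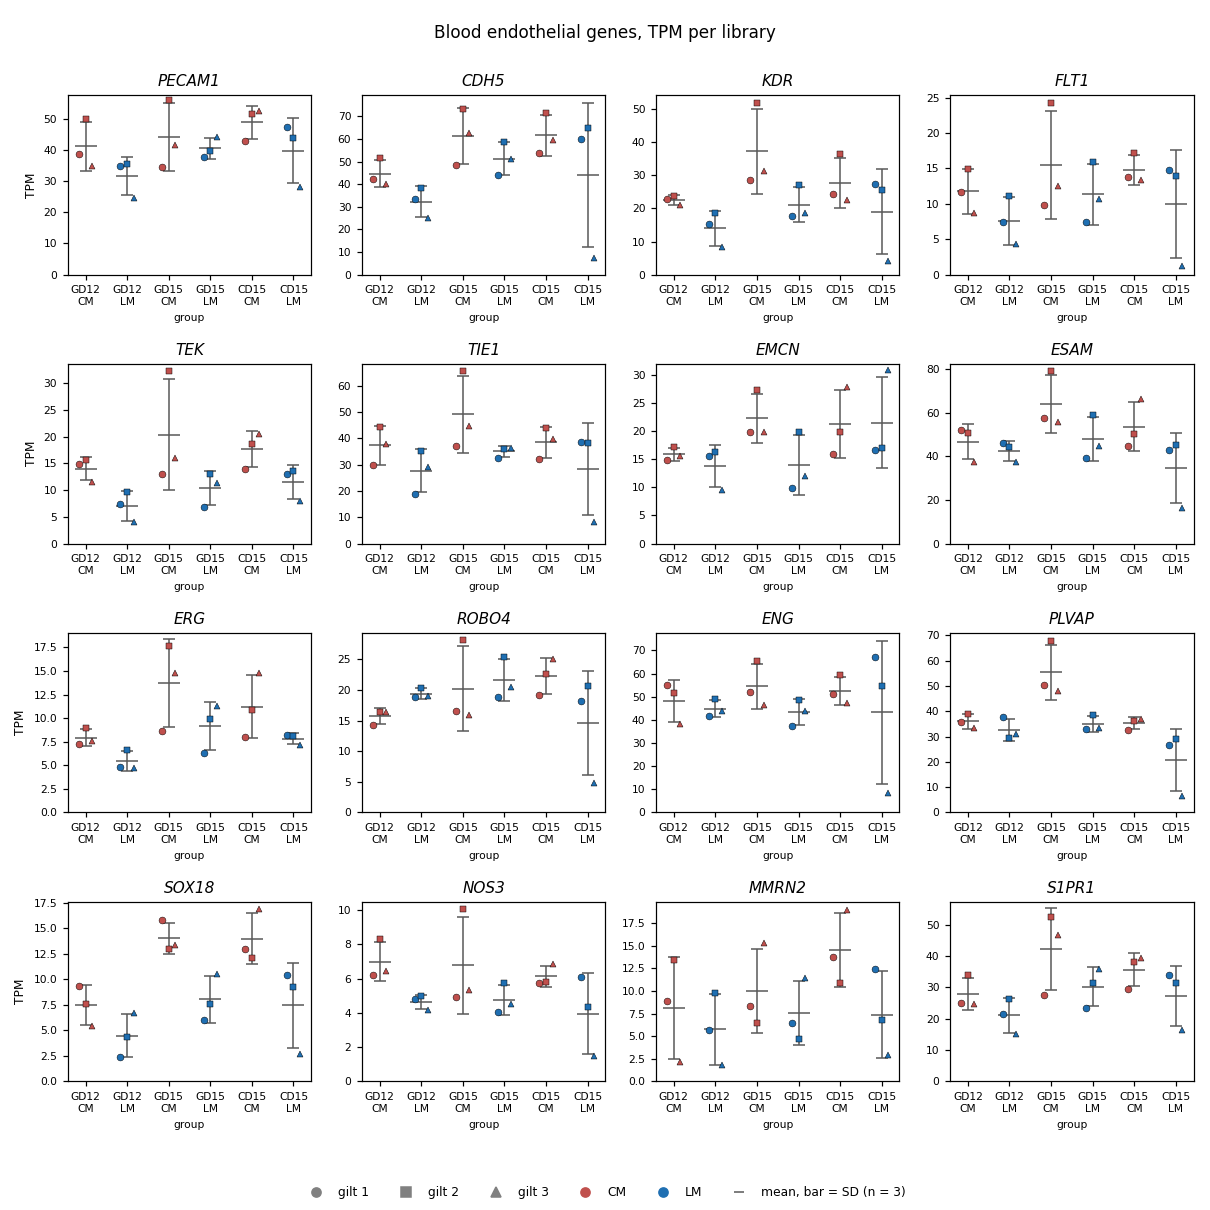
TPM of the 16 blood endothelial genes in each library (y axis, from 0) by group (x axis). Points are libraries, with 1 marker shape per gilt and 1 color per layer, and the bars are mean and SD of 3 gilts. The third CD15 LM library is the lowest of its group for 15 of the 16 genes, EMCN being the exception.

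The lymphatic genes did not all differ in 1 direction. Their median TPM over the 18 libraries ran from 2.32 for PROX1 to 44.6 for PDPN. PROX1, LYVE1, FLT4, MMRN1 and RELN had positive differences over the 3 states, and PDPN and STAB1 had negative ones. FLT4 is the receptor for VEGFC and VEGFD (chromosome 2, 78076008 to 78115137, ENSSSCG00000014007 in Sscrofa11.1). In CM, FLT4 was at 14.2, 24.2 and 19.4 TPM on GD12, at 20.4, 41.7 and 37.5 TPM on GD15 and at 25.8, 46.2 and 25.0 TPM on CD15. In LM, FLT4 was at 4.88, 11.9 and 5.10 TPM on GD12, at 13.8, 11.3 and 19.8 TPM on GD15 and at 26.4, 33.9 and 4.29 TPM on CD15. In both pregnant states every CM library of FLT4 was above every LM library, and on CD15 the layers overlapped.

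FLT4 was higher in CM by 1.11 ± 0.24, adjusted p = 0.0042 over the 3 states. The difference on GD12 was 1.36 ± 0.41, adjusted p = 0.04, on GD15 1.07 ± 0.41, adjusted p = 0.10, and on CD15 0.90 ± 0.41, adjusted p = 0.16. The GD12 call was lost whichever GD12 gilt was left out, at an adjusted p of 0.16 without gilt 1, 0.073 without gilt 2 and 0.24 without gilt 3, and also after quantile normalization (0.051), with no filter (0.066) and with no gilt block (0.12). The value of CD15 rested on gilt 3, without which it was 0.20 ± 0.30, adjusted p = 0.70. Without that gilt the mean over the states was 0.88 ± 0.15, adjusted p = 0.0014, which no longer reached the minimum fold. The same held without gilt 2 of GD15, at 0.99, and after median-ratio scaling and quantile normalization, at 0.85 and 0.74. When gilt 3 of CD15 was left out, NRP2 was the only member that passed over the 3 states, where 13.9% of all genes did.

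MMRN1, a secreted multimerin of lymphatic endothelium that is also held in platelets, passed in both pregnant states with all libraries (chromosome 8, 129113951 to 129173413, ENSSSCG00000009202). In CM, MMRN1 was at 14.6, 16.2 and 19.3 TPM on GD12, at 24.3, 21.6 and 37.5 TPM on GD15 and at 28.1, 55.5 and 36.8 TPM on CD15. In LM, MMRN1 was at 3.93, 8.94 and 3.46 TPM on GD12, at 9.10, 4.96 and 21.5 TPM on GD15 and at 37.2, 40.0 and 26.9 TPM on CD15. CM was above LM without overlap in both pregnant states, and on CD15 the layers overlapped. The platelet list was low in both layers, with 4 of its 7 genes in the table, a summed level of 8.12 to 19.2 TPM in CM and 6.05 to 19.8 TPM in LM, and PPBP and TREML1 below 1 TPM in all libraries.

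The layer difference of MMRN1 was 1.55 ± 0.31, adjusted p = 0.0061 on GD12 and 1.34 ± 0.31, adjusted p = 0.014 on GD15. It was 0.17 ± 0.31, adjusted p = 0.73 on CD15, and 1.02 ± 0.18, adjusted p = 0.0014 over the 3 states. Without gilt 3 of CD15 the latter was 0.98 ± 0.19, adjusted p = 0.0024, just under the minimum fold. The call over the 3 states was also lost without gilt 2 of CD15 (0.97), gilt 3 of GD12 (0.91) or gilt 2 of GD15 (0.92), and after median-ratio scaling and quantile normalization, at 0.75 and 0.65. The CD15 value without gilt 3 was 0.04 ± 0.37, adjusted p = 0.97. The GD12 call was lost without gilt 3 of GD12, at 1.23 ± 0.36, adjusted p = 0.071. The GD15 call was lost without gilt 1 (1.35 ± 0.40, adjusted p = 0.076), without gilt 2 (1.05 ± 0.37, adjusted p = 0.11), without gilt 2 of GD15 and gilt 3 of CD15 together (0.058) and with no gilt block (0.051). All 6 pregnant gilts had more MMRN1 in CM than in LM.

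LYVE1, a hyaluronan receptor of lymphatic capillaries that some macrophages also carry, followed the same order (chromosome 2, 48937357 to 48954206, ENSSSCG00000029886). In CM, LYVE1 was at 35.5, 41.4 and 34.3 TPM on GD12, at 27.6, 24.9 and 52.7 TPM on GD15 and at 40.1, 71.0 and 68.7 TPM on CD15. In LM, LYVE1 was at 11.15, 24.4 and 12.3 TPM on GD12, at 14.2, 10.1 and 33.6 TPM on GD15 and at 47.6, 50.5 and 53.4 TPM on CD15. On GD12 CM was above LM without overlap, while on GD15 the highest LM value exceeded the lower CM values, and the cyclic libraries of both layers lay between 40.1 and 71.0 TPM. The difference passed on GD12 at 1.25 ± 0.23, adjusted p = 0.0038. On GD15 it was 0.92 ± 0.23, adjusted p = 0.019, past the adjusted p but not the minimum fold, and on CD15 0.20 ± 0.23, adjusted p = 0.56, or 0.12 ± 0.25, adjusted p = 0.79 without gilt 3. The GD12 call was lost after median-ratio scaling and quantile normalization, at 0.99 and 0.88. The 11 macrophage genes summed to 256.4 to 888.9 TPM in CM and 248.0 to 603.5 TPM in LM, and 0 of them passed over the 3 states, with CD14 passing on GD15 as higher in CM.

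PROX1, the transcription factor that defines lymphatic identity, was present at a low level. In CM, PROX1 was at 2.13, 2.04 and 1.49 TPM on GD12, at 2.07, 4.98 and 4.97 TPM on GD15 and at 2.65, 5.0 and 4.37 TPM on CD15. In LM, PROX1 was at 0.206, 1.71 and 0.110 TPM on GD12, at 2.50, 1.18 and 3.27 TPM on GD15 and at 5.49, 4.25 and 1.74 TPM on CD15. A pair of LM libraries of GD12 was near 0, and the other libraries overlapped. The layer difference of PROX1 was 0.53 ± 0.23, adjusted p = 0.092 over the 3 states (0.39 ± 0.23, adjusted p = 0.18 without gilt 3 of CD15) and 0.90 ± 0.40, adjusted p = 0.15 on GD12.

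RELN, a secreted glycoprotein made by lymphatic endothelium, was chosen for full values after they were seen. In CM, RELN was at 2.54, 4.07 and 3.54 TPM on GD12, at 3.70, 6.23 and 8.45 TPM on GD15 and at 4.63, 10.9 and 5.48 TPM on CD15. In LM, RELN was at 0.575, 2.17 and 0.887 TPM on GD12, at 1.83, 1.69 and 4.20 TPM on GD15 and at 7.77, 8.56 and 0.760 TPM on CD15. CM of RELN was above LM without overlap on GD12, and on GD15 1 LM library exceeded the lowest CM library. The difference over the 3 states was 0.85 ± 0.23, adjusted p = 0.014, below the minimum fold. It was 0.63 ± 0.15, adjusted p = 0.0077 without gilt 3 of CD15 and 0.35 ± 0.18, adjusted p = 0.15 after quantile normalization.

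PDPN and STAB1 are shared with other cells. PDPN, podoplanin, is also found on stromal fibroblasts and mesothelium, and its values were likewise chosen after they were seen. In CM, PDPN was at 34.8, 45.6 and 42.9 TPM on GD12, at 43.5, 18.4 and 32.5 TPM on GD15 and at 31.6, 86.8 and 25.9 TPM on CD15. In LM, PDPN was at 78.9, 73.4 and 93.3 TPM on GD12, at 67.4, 39.7 and 58.5 TPM on GD15 and at 54.4, 109 and 18.3 TPM on CD15. On GD12 every LM library of PDPN was above every CM library, on GD15 2 of 3 LM libraries were, and PDPN was lower in CM in 8 of 9 gilts. Its layer difference was -0.98 ± 0.24, adjusted p = 0.016 on GD12, -0.84 ± 0.24, adjusted p = 0.035 on GD15 and -0.20 ± 0.24, adjusted p = 0.57 on CD15, where it was -0.54 ± 0.17, adjusted p = 0.069 without gilt 3. It stayed under the minimum fold, but after median-ratio scaling it passed at -1.24 on GD12 and -1.01 on GD15, and after quantile normalization at -1.15 and -1.08. Of 8 mesothelial genes only 4 were in the table, with a sum of 99.1 to 277.7 TPM in CM and 108.5 to 423.5 TPM in LM. For 7 fibroblast genes the sum was 16787 to 36598 TPM in CM and 16898 to 59908 TPM in LM, with medians of 29327 and 40206. It was lower in CM except in gilt 1 of GD12 and gilt 3 of CD15. The part of these levels in the PDPN differences was not tested. STAB1, a scavenger receptor of lymphatic and sinusoidal endothelium and of macrophages, ranged from 7.09 to 46.3 TPM and differed by -0.34 ± 0.18, adjusted p = 0.16, and by -0.50 ± 0.13, adjusted p = 0.012 without gilt 3 of CD15.

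**Figure D3:**
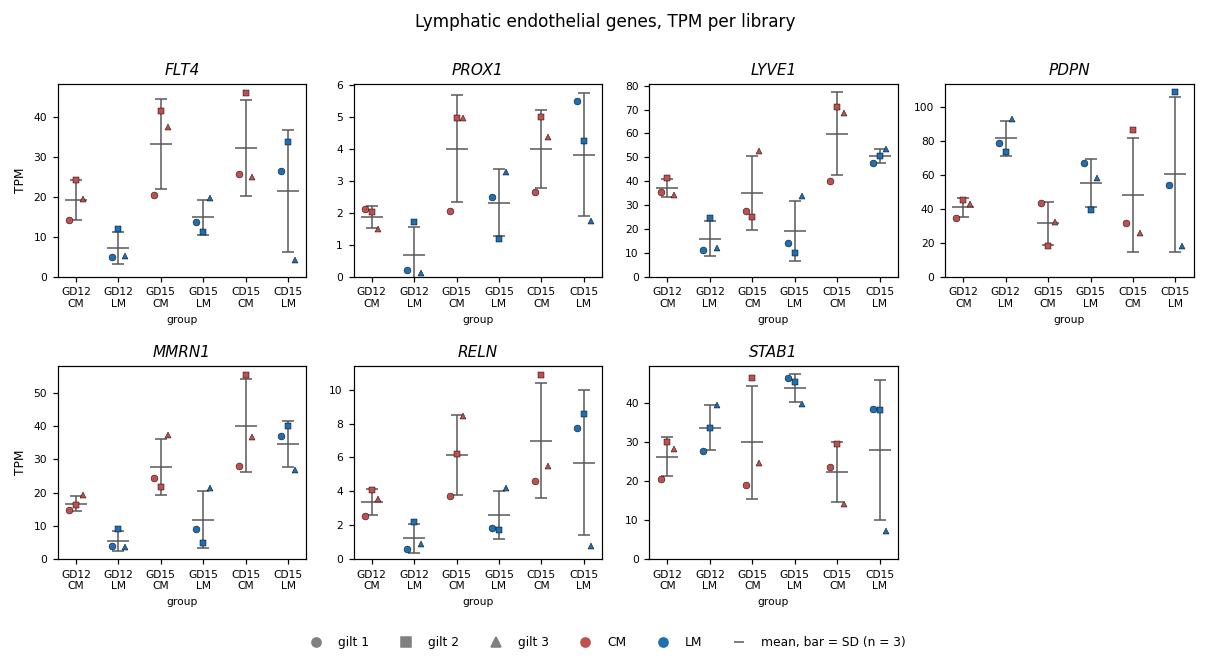
TPM of the 7 lymphatic genes in each library (y axis, from 0) by group (x axis), with 1 marker shape per gilt, 1 color per layer and bars for mean and SD of 3 gilts (cut at 0 for PROX1). MMRN1 in LM lies at 3.46 to 8.94 TPM on GD12 and at 26.9 to 40.0 TPM on CD15, and the GD12 libraries of PDPN lie higher in LM than in CM.

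The factors and co-receptors were led by NRP2, a co-receptor for VEGFC, VEGFD and class 3 semaphorins that in mouse is also present in visceral smooth muscle (chromosome 15, 108974246 to 109092316, ENSSSCG00000026383). In CM, NRP2 was at 19.3, 22.5 and 12.8 TPM on GD12, at 13.8, 17.4 and 22.3 TPM on GD15 and at 28.2, 51.8 and 21.7 TPM on CD15. In LM, NRP2 was at 119, 70.9 and 72.9 TPM on GD12, at 121, 72.1 and 74.0 TPM on GD15 and at 79.1, 113 and 8.94 TPM on CD15. Every LM library except that of CD15 gilt 3 lay above every CM library of the series. The level in LM was 87.4 ± 26.9 TPM on GD12 and 88.9 ± 27.5 TPM on GD15, against 18.2 ± 4.95 TPM and 17.8 ± 4.24 TPM in CM (mean ± SD, n = 3 gilts).

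NRP2 was lower in CM by -2.20 ± 0.46, adjusted p = 0.0081 on GD12 and -2.24 ± 0.46, adjusted p = 0.0089 on GD15. On CD15 it was -0.46 ± 0.46, adjusted p = 0.51, and without gilt 3 it was -1.28 ± 0.32, adjusted p = 0.032, which passed (9.11% of all genes passed then). Over the 3 states the value was -1.63 ± 0.27, adjusted p = 9.5e-04, and without that gilt -1.91 ± 0.16, adjusted p = 3.9e-05. The GD12 call was lost without gilt 1 (-2.01 ± 0.59, adjusted p = 0.067) or gilt 3 of GD12 (-2.08 ± 0.61, adjusted p = 0.072), and the GD15 call without gilt 1 of GD15 (-1.84 ± 0.56, adjusted p = 0.079). The call over the 3 states held whichever gilt was left out and under every other setting tried.

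VEGFA, the main growth factor of blood vessels, was also at a lower level in CM than in LM in most gilts. In CM, VEGFA was at 30.9, 44.9 and 26.6 TPM on GD12, at 18.6, 60.7 and 30.6 TPM on GD15 and at 18.8, 24.4 and 20.3 TPM on CD15. In LM, VEGFA was at 68.8, 60.6 and 49.3 TPM on GD12, at 51.5, 64.8 and 42.1 TPM on GD15 and at 31.3, 28.0 and 9.88 TPM on CD15. On GD12 LM of VEGFA was above CM without overlap, and on GD15 the CM library of gilt 2 lay within the LM range. VEGFA was lower in CM in 8 of 9 gilts, by -0.81 ± 0.34, adjusted p = 0.12 on GD12, -0.65 ± 0.34, adjusted p = 0.22 on GD15 and -0.48 ± 0.19, adjusted p = 0.073 over the 3 states. None of these passed, and the value over the 3 states was -0.64 ± 0.15, adjusted p = 0.0076 without gilt 3 of CD15, past the adjusted p alone. The GD12 difference passed at -1.07 after median-ratio scaling and -1.02 after quantile normalization.

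VEGFC is the main lymphatic growth factor. In CM, VEGFC was at 18.2, 18.3 and 16.2 TPM on GD12, at 17.9, 18.1 and 17.8 TPM on GD15 and at 24.1, 25.8 and 31.5 TPM on CD15. In LM, VEGFC was at 15.6, 19.1 and 20.2 TPM on GD12, at 22.7, 22.3 and 20.9 TPM on GD15 and at 29.4, 28.1 and 27.6 TPM on CD15. The cyclic libraries held 24.1 to 31.5 TPM, above the range of 15.6 to 22.7 TPM of all pregnant libraries. With all libraries VEGFC passed in no comparison of states. Without CD15M_LM of gilt 3, VEGFC in LM differed between GD12 and CD15 by -0.63 ± 0.15, adjusted p = 0.019, past the adjusted p alone. Between GD15 and CD15 it then differed by -0.38 ± 0.15, adjusted p = 0.16. The layer difference of VEGFC was -0.13 ± 0.10, adjusted p = 0.32, and -0.17 ± 0.08, adjusted p = 0.089 without gilt 3 of CD15. VEGFD, the related ligand, ranged from 22.4 to 77.3 TPM and differed by -0.08 ± 0.17, adjusted p = 0.72, and by -0.23 ± 0.11, adjusted p = 0.12 without that gilt.

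The angiopoietins were at low levels. ANGPT1, the ligand that activates TEK and steadies vessels, was the lowest of the factors. In CM, ANGPT1 was at 1.07, 0.758 and 0.536 TPM on GD12, at 1.40, 1.82 and 2.39 TPM on GD15 and at 1.47, 1.92 and 1.84 TPM on CD15. In LM, ANGPT1 was at 0.359, 1.56 and 0.543 TPM on GD12, at 1.14, 1.48 and 1.59 TPM on GD15 and at 2.12, 1.24 and 2.27 TPM on CD15. All libraries of ANGPT1 were at or below 2.39 TPM and the layers overlapped in each state (0.07 ± 0.15, adjusted p = 0.73, or 0.09 ± 0.16, adjusted p = 0.65 without gilt 3 of CD15).

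ANGPT2, which endothelial cells release and which can block ANGPT1, was at a higher level. In CM, ANGPT2 was at 7.26, 8.94 and 6.81 TPM on GD12, at 9.14, 16.0 and 10.3 TPM on GD15 and at 9.20, 13.8 and 16.2 TPM on CD15. In LM, ANGPT2 was at 8.71, 6.28 and 4.33 TPM on GD12, at 5.83, 8.85 and 7.17 TPM on GD15 and at 7.97, 7.75 and 6.20 TPM on CD15. On both GD15 and CD15 every CM library of ANGPT2 was above every LM library. ANGPT2 was higher in CM by 0.53 ± 0.14, adjusted p = 0.013 over the 3 states, in 8 of 9 gilts and below the minimum fold. It was 0.44 ± 0.12, adjusted p = 0.014 without gilt 3 of CD15, 0.27 ± 0.11, adjusted p = 0.085 after median-ratio scaling and 0.07 ± 0.12, adjusted p = 0.66 after quantile normalization. NRP1, the co-receptor of KDR for VEGFA, ranged from 7.69 to 56.9 TPM and differed by 0.29 ± 0.16, adjusted p = 0.17, and by 0.14 ± 0.10, adjusted p = 0.26 without gilt 3 of CD15.

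**Figure D4:**
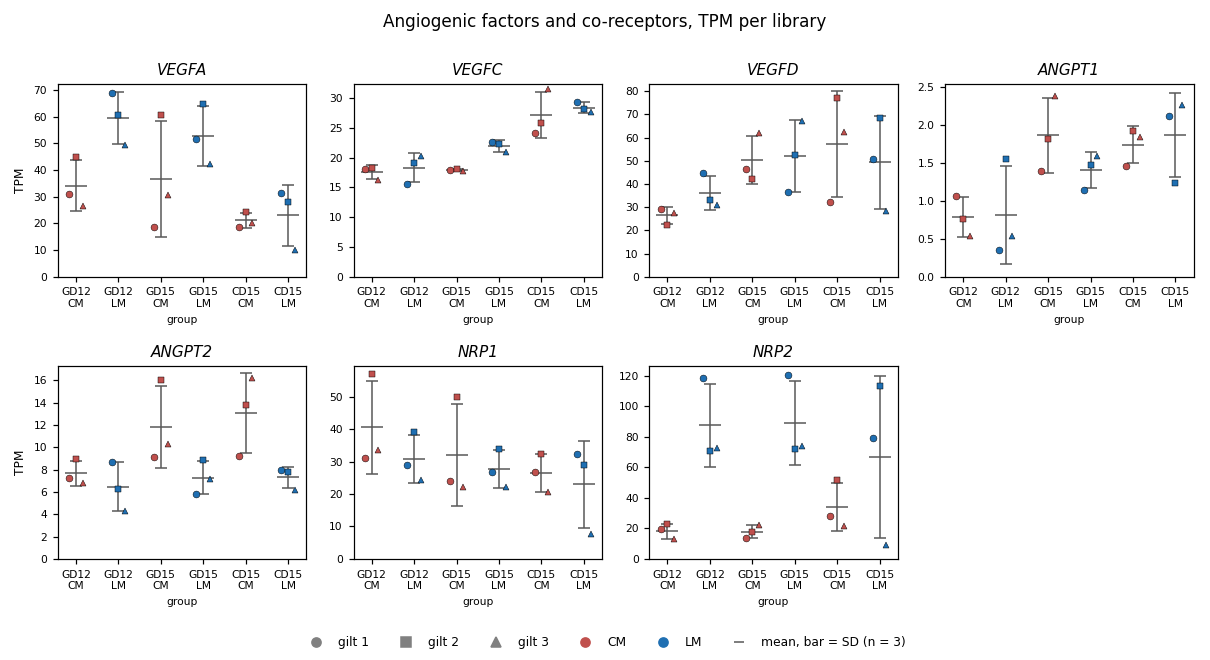
TPM of the 7 factor and co-receptor genes in each library (y axis, from 0) by group (x axis), with 1 marker shape per gilt, 1 color per layer and bars for mean and SD of 3 gilts. NRP2 lies at 70.9 TPM or more in 8 of 9 LM libraries and at 51.8 TPM or less in all CM libraries.

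The layer differences themselves were compared between states. In none of the 3 comparisons of layer differences did a member pass, where 0.189% (GD15 against CD15), 0.0196% (GD15 against GD12) and 0.13% (GD12 against CD15) of all genes did. The lowest adjusted p of a member was 0.38. At an unadjusted p below 0.05 there were 0 members between GD15 and GD12 and 8 of 90 values in all (9.4%, 6.94% and 9.22% of all genes in the same order), from EMCN, LYVE1, PDPN, MMRN1 and NRP2. The layer difference of MMRN1 was larger on GD12 than on CD15 by 1.38 ± 0.44, adjusted p = 0.40, and that of NRP2 was more negative by -1.74 ± 0.66, adjusted p = 0.49. These values were 1.51 ± 0.47, adjusted p = 0.23 and -0.91 ± 0.42, adjusted p = 0.37 without gilt 3 of CD15. The calls of the pregnant states and their lack on CD15 are therefore not shown to differ.

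The second question was whether pregnancy or its day changed vessel genes within a layer. With all libraries, 0 of 30 members passed in any of the 6 comparisons. The share of all genes that passed was 0.155% in CM between GD15 and CD15, 0.027% between GD15 and GD12 and 0.216% between GD12 and CD15. In LM it was 0.178%, 0% and 1.04% in the same order. Of the 180 values of the members, 31 had an unadjusted p below 0.05, and the lowest adjusted p was 0.053. The share of all genes at that unadjusted p was 15.2%, 15.5% and 17.7% in CM and 12%, 4.93% and 19.7% in LM. The states share libraries across these comparisons. GD12 and CD15 differ both in pregnancy and in day, and these cannot be told apart there.

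In LM, between GD12 and CD15, that lowest value belonged to MMRN1, which differed by -2.55 ± 0.50, adjusted p = 0.053. The LM values printed above for MMRN1 and LYVE1 were lower in every GD12 library than in any CD15 library. LYVE1 differed by -1.69 ± 0.44, adjusted p = 0.097, PROX1 by -1.56 ± 0.47, adjusted p = 0.13, RELN by -1.32 ± 0.64, adjusted p = 0.29 and FLT4 by -1.15 ± 0.67, adjusted p = 0.37. The median of the 7 lymphatic genes was -1.32, that of the 16 blood genes was -0.05 and that of all genes was -0.05.

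Without CD15M_LM of gilt 3, 5 of 7 lymphatic genes were lower on GD12 than on CD15 in LM and passed, where 7.95% of all genes passed in that direction. MMRN1 then differed by -2.72 ± 0.54, adjusted p = 0.012, RELN by -2.12 ± 0.40, adjusted p = 0.01, FLT4 by -1.999 ± 0.37, adjusted p = 0.0099, PROX1 by -1.93 ± 0.46, adjusted p = 0.021 and LYVE1 by -1.65 ± 0.48, adjusted p = 0.039. The CD15 group then had 2 libraries. The summed TPM of the 10 epithelial genes was 39.0 to 55.7 in GD12M_LM, and 308.2 and 124.3 in CD15M_LM of gilts 1 and 2. For 4 red cell genes it was 8.21 to 31.7, and 143.8 and 91.6, in the same order. The part of these levels in the lymphatic differences was not tested. The other lymphatic genes were near 0, with 0.08 for PDPN and -0.20 for STAB1. None of the 16 blood genes passed, and their median was -0.53 beside a median of -0.27 over all genes, and CDH5 was past the adjusted p at -0.95 ± 0.19, adjusted p = 0.013.

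**Figure D5:**
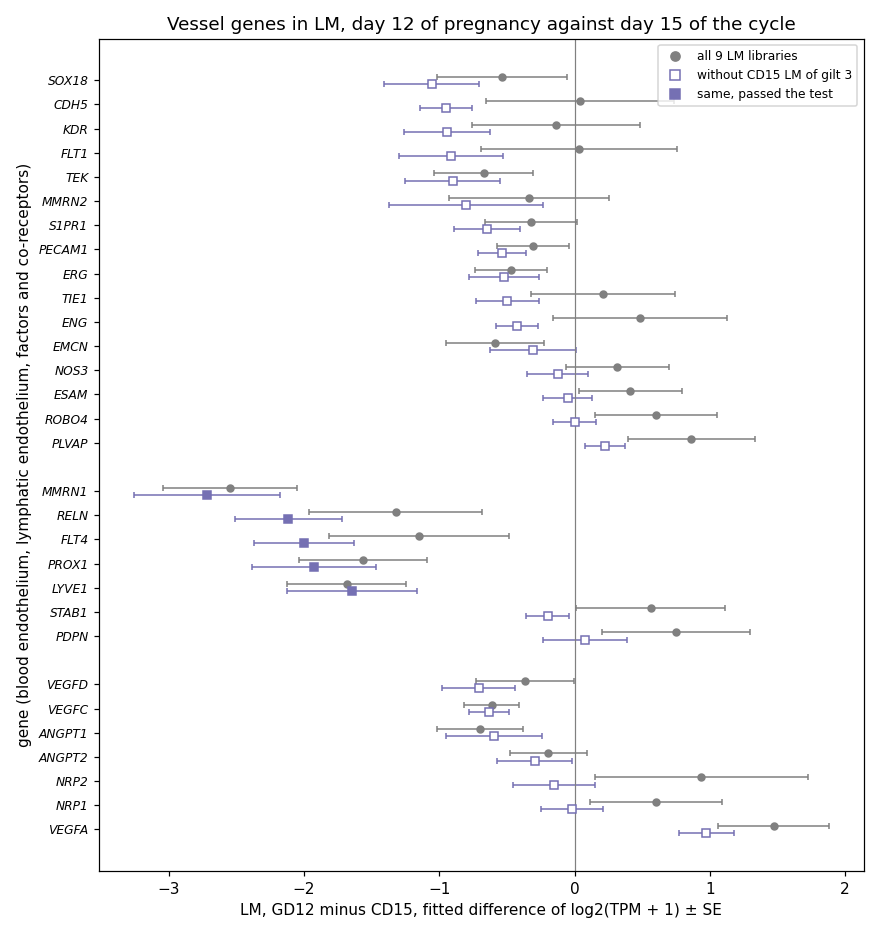
Fitted difference of the 30 members in LM between day 12 of pregnancy and day 15 of the cycle (x axis, log2(TPM + 1), bars are standard errors), with all 9 LM libraries (circles) and without CD15M_LM of gilt 3 (squares, filled where the gene passed). The filled squares are MMRN1, RELN, FLT4, PROX1 and LYVE1, from -2.72 to -1.65.

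Between GD15 and CD15 in LM, MMRN1 differed by -1.67 ± 0.50, adjusted p = 0.26 and LYVE1 by -1.51 ± 0.44, adjusted p = 0.25. Without CD15M_LM of gilt 3 they differed by -1.84 ± 0.54, adjusted p = 0.086 and -1.47 ± 0.48, adjusted p = 0.11, and 0 of 30 members passed, where 2.64% of all genes did. For VEGFA, every GD12 and GD15 library of LM lay above every CD15 library. It differed by 1.47 ± 0.41, adjusted p = 0.11 for GD12 and 1.29 ± 0.41, adjusted p = 0.29 for GD15. Without that library the GD12 value was 0.97 ± 0.20, adjusted p = 0.014, past the adjusted p but below the minimum fold, and the GD15 value was 0.79 ± 0.20, adjusted p = 0.061. With all 9 libraries, MMRN1 and VEGFA passed between GD12 and CD15 after median-ratio scaling, at -2.52 and 1.52, and also after quantile normalization, at -2.45 and 1.41.

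In CM between GD12 and CD15, MMRN1 had the lowest adjusted p of the members, at -1.17 ± 0.28, adjusted p = 0.095, and its 3 GD12 libraries all lay below the CD15 libraries. The median of the lymphatic genes was -0.69 and that of the blood genes was -0.32, beside -0.11 over all genes. VEGFD differed by -1.01 ± 0.30, adjusted p = 0.14 and VEGFC by -0.60 ± 0.16, adjusted p = 0.12. From GD12 to GD15 in CM, SOX18 differed by 0.85 ± 0.23, adjusted p = 0.15 and KDR by 0.65 ± 0.25, adjusted p = 0.26. VEGFD, ANGPT1, MMRN1, ERG, PLVAP and CDH5 also had an unadjusted p below 0.05 there, from 0.44 for CDH5 to 0.89 for VEGFD. Between GD15 and CD15 in CM, PLVAP differed by 0.62 ± 0.16, adjusted p = 0.16 and LYVE1 by -0.79 ± 0.30, adjusted p = 0.27. NRP2 at -0.82 and VEGFC at -0.56 also had an unadjusted p below 0.05 in that comparison. In LM between GD15 and GD12, the median of the 16 blood genes was 0.42 beside 0.17 over all genes. At an unadjusted p below 0.05 there was 1 member (4.93% of all genes), ERG at 0.64 ± 0.27, adjusted p = 0.93.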

How the data were processed

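Per the labels, the authors sequenced paired reads on an Illumina HiSeq instrument and used HISAT2 2.1.0 and HTSeq 0.9.1. The deposited values are TPM, with 18 libraries of 24358 genes, and gene lengths and strand are not given in the sources used here. Depth is unknown from TPM. In all, 15650 to 17746 genes were above 0 per library, and 0 sample columns were unused.

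Members and lists were chosen with earlier results of these data known. Members were matched by symbol (30 of 38), and coordinates come from RefSeq by symbol. Members that passed, and the defining genes of each class, were described by library, and the others by range.

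Log2(TPM + 1) values were fitted with limma 3.58.1 in R 4.3.3 with a variance trend, after a filter of 1 TPM in 3 libraries of a fit. The layer model used all 18 libraries and blocked on the gilt. States were tested on 9 libraries without pairs. The 2 layers of a gilt share a number, and their deviations correlated at 0.19 to 0.53 in 9 of 9 pairs (-0.44 to 0.06 for other numbers). The procedure was tested on simulated data. Alternatives were other pseudocounts, filters, scalings, blocks and left-out libraries. Figures used matplotlib.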

Additional observations from a re-analysis of the deposited data

Results flagged for a closer look

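ROBO4, the endothelial receptor, was marked because its layer difference pointed one way in all gilts of a state and the other way in all gilts of another. CM was below LM in 3 of 3 gilts on GD12 and above LM in 3 of 3 gilts on CD15. In CM, ROBO4 was at 14.2, 16.5 and 16.5 TPM on GD12 and at 19.2, 22.5 and 25.0 TPM on CD15, and in LM at 18.8, 20.4 and 19.0 and 18.2, 20.6 and 4.85 TPM. The difference of the layer effects was -1.07 ± 0.50, adjusted p = 0.55 in limma, and did not pass. The lowest value is that of the CD15M_LM library of gilt 3. The difference of the layer effects was -0.39 ± 0.20, adjusted p = 0.42 without gilt 3 of CD15.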

How the results depend on the processing

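The counts of members that passed are small, and they moved with the processing. Over the 3 states the count of 3 became 1 after median-ratio scaling, 1 after quantile normalization, 1 with a pseudocount of 5, 4 with a pseudocount of 0.1, 15 with no minimum fold, and 1 without the CD15 gilt 3 and GD15 gilt 2 samples. On GD12 the count of 4 became 5 after median-ratio scaling and with a pseudocount of 0.1, and 3 with no filter. On GD15 the count of 2 became 3 under both scalings, 6 with no minimum fold, 1 without the replicate block and 1 without both samples. On CD15 the count of 0 became 1 without both samples. In LM between GD12 and CD15 the count of 0 became 1 with a mean TPM of at least 5, 2 after median-ratio scaling, 2 after quantile normalization, 1 with a pseudocount of 5, and 5 without both samples. Leaving out each replicate gave 1 to 4 over the 3 states, 1 to 5 on GD12, 0 to 3 on GD15, 0 to 1 on CD15 and 0 to 5 in LM between GD12 and CD15. The cause of each change was not tested. Without the replicate block the layer counts were 3 over the 3 states, 3 on GD12 and 1 on GD15, and with the replicate number as a replicate block the state counts were 0. Same-numbered libraries of different states correlated at -0.26 to 0.31 in their deviations, with no other pairs computed beside them. Each state came from different gilts, so these numbers do not pair states. The 9 layer values of single members that passed were refitted 126 times, and the call was lost in 30 of these, 15 with a gilt left out and 15 under another setting. The 18 values past the adjusted p alone were refitted 287 times, and 10 of these passed. None of these refits turned a direction.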

Other observations

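Other lists of vessel genes were read over the 3 states beside the 14.5% of all genes that passed there, and most of their shares were near or below it. Of the 5 venous genes found 2 passed, both higher in CM. The median summed TPM of the 5 was not higher in CM, at 338.9 over the CM libraries and 372.5 over the LM libraries. On GD15 alone the medians were 429.3 in CM and 380.2 in LM. SELP, the adhesion molecule that slows leukocytes, differed by 1.36 ± 0.16, adjusted p = 1.3e-04, and ACKR1, a chemokine-binding protein of venules, by 1.07 ± 0.16, adjusted p = 5.3e-04. On GD12 VCAM1, an adhesion molecule for leukocytes, also passed at 1.23 ± 0.27, adjusted p = 0.0099. Of 9 arterial genes 1 passed, SEMA3G, a secreted semaphorin, at 1.57 ± 0.25, adjusted p = 7.9e-04, and HEY1, a Notch target, passed on GD15 at 1.73 ± 0.26, adjusted p = 0.0018. Of 25 other endothelial genes 2 passed, ECE1, which cuts endothelin precursors, at 1.47 ± 0.28, adjusted p = 0.0023 and CAV1, the caveola protein that smooth muscle also holds, at -1.24 ± 0.15, adjusted p = 1.7e-04. Of 12 other lymphatic genes 1 passed, CCL21, the chemokine that draws immune cells into lymphatic vessels, at 1.20 ± 0.18, adjusted p = 5.3e-04.

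Among 31 tested genes of angiogenic and guidance signaling, 3 were higher and 3 lower in CM. The repulsive cues SEMA3E and SLIT2 were lower by -2.02 ± 0.12, adjusted p = 4.7e-06 and -1.50 ± 0.25, adjusted p = 0.001. CXCL12, a chemokine of stromal cells, was lower by -1.45 ± 0.13, adjusted p = 2.2e-05, and EPAS1, a hypoxia-inducible factor abundant in endothelium, was higher by 1.53 ± 0.37, adjusted p = 0.0083. SEMA3E was at 2.03, 0.391 and 0.170 TPM in GD12M_CM and 7.44, 4.01 and 2.88 TPM in GD12M_LM. Of 9 pericyte genes, ANPEP passed over the 3 states at 1.70 ± 0.33, adjusted p = 0.0023. The median summed TPM of the 9 genes was 1294.9 over the CM libraries and 1560.2 over the LM libraries. Within gilts the sums went both ways, with 1977.8 in CM and 1554.3 in LM for gilt 2 of GD12, and 957.0 and 1469.3 for gilt 3 of GD12. The ranges of these sums overlapped, at 957.0 to 1977.8 in CM and 763.8 to 1881.8 in LM. RGS5, a regulator of G protein signaling that marks pericytes, was higher in CM on GD12 at 2.11 ± 0.24, adjusted p = 3.4e-04, and in LM it was lower on GD12 than on CD15 at -2.62 ± 0.39, adjusted p = 0.026.

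The values named here for the 3 states still passed without gilt 3 of CD15, and so did the LM value of RGS5 without CD15M_LM of gilt 3. After median-ratio scaling ACKR1 and CCL21 were below the minimum fold, at 0.83 and 0.92, after quantile normalization SELP and ACKR1 were, at 0.85 and 0.54, and VCAM1 on GD12 was under both, at 0.97 and 0.87.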
